A study of Mus musculus with 24 samples.

Results

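The DNA methylation machinery is described here by the methylation of its own genes. The 10 genes are the writers Dnmt1, Dnmt3a and Dnmt3b with their cofactor Dnmt3l, the maintenance partner Uhrf1, the erasers Tet1, Tet2 and Tet3, and the readers Mbd2 and Mbd3. Their members were all rows of the deposited table that lie inside the gene's span in the GENCODE M21 annotation (mouse build GRCm38) or within 2 kb of it. This gave 473 of 694379 rows, where a row is 1 CpG on 1 strand. The dentate gyrus, the part of the hippocampus that holds the granule neurons and forms new ones in adult life, had been micro-dissected from female C57BL/6JRj mice, and its DNA had been profiled by reduced representation bisulfite sequencing (RRBS), in which an enzyme that cuts at CCGG enriches CpG-rich fragments and bisulfite turns unmethylated cytosines into bases read as thymine. The 3 groups of 8 mice were young mice in standard housing aged 3 months (young STD), aged mice in standard housing aged 17 months (aged STD) and aged mice of 17 months that had spent 3 months, from an age of 14 months, in an enriched environment (aged ENR). Enriched mice lived together in a roomy cage that held objects to explore. Because mice of a group shared cages, cage and housing cannot be told apart.

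Methylation of CpGs is laid down on unmethylated DNA by Dnmt3a and Dnmt3b and is copied to the new strand after replication by Dnmt1, which Uhrf1 brings to half-methylated sites. The Tet enzymes oxidise 5-methylcytosine, which starts its removal, and bisulfite does not separate the first oxidation product from methylcytosine itself. Mbd2 binds methylated CpGs, Mbd3 is its close relative with little affinity for them, and both belong to NuRD repressor complexes. In neurons, which do not divide, Dnmt3a and the Tet enzymes are the members best known for changing methylation after birth. CpG-rich promoters of active genes are mostly unmethylated, while gene bodies and CpG-poor DNA are mostly methylated.

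The sequences that follow, read from GRCm38 on the plus strand, show what the table measured at the writers and at Uhrf1. Capitals mark each CG with at least 1 row, and the other letters are the surrounding sequence. The first Dnmt1 window, at chr9:20952630-20952787, spans a coding exon and intron at the starts of Dnmt1-203 and Dnmt1-205, and its 10 rows averaged 1.34% over all mice. The second, at chr9:20958744-20958906 in the first intron of Dnmt1-202, lies within the same gene and averaged 91.4% over 12 rows. The Dnmt3a window at chr12:3807890-3807982 and the Dnmt3b window at chr2:153649741-153649920 lie in introns just past the first starts, and averaged 0.948% and 0.179%. The Uhrf1 window at chr17:56303755-56304054, intronic, averaged 1.61% over 24 rows.
Dnmt1 near its main starts: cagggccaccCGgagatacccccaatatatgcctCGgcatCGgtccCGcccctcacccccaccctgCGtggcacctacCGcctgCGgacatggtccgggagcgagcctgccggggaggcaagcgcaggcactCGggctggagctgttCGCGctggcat
Dnmt1 first intron: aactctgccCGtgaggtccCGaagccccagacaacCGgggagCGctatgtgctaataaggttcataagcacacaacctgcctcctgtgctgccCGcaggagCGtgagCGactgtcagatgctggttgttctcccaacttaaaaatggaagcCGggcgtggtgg
Dnmt3a: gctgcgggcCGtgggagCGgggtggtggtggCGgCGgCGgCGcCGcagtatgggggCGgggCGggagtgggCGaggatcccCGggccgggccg
Dnmt3b: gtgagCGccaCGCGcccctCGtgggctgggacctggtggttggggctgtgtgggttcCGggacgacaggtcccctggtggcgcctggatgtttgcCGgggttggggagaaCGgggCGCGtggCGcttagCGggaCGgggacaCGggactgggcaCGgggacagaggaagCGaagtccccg
Uhrf1: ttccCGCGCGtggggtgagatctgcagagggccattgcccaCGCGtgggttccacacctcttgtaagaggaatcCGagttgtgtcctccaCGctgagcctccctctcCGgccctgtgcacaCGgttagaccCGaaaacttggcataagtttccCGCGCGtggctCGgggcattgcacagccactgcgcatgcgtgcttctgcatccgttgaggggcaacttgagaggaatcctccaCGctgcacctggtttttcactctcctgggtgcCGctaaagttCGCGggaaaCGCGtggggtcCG

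For the erasers and readers, the sequences were chosen to set unmethylated, methylated and intermediate stretches side by side. The Tet1 window at chr10:62886117-62886416, in the intron behind the starts of Tet1-207 and Tet1-210, averaged 1.5% over 19 rows. A coding exon of the same gene, at chr10:62879808-62879890 beside the annotated start of Tet1-201, averaged 98.0% over 4 rows. The Tet2 window at chr3:133533711-133533858 is intronic, and its 5 rows averaged 48.0%, with CpG means from 14.9% to 76.4%. The Mbd3 window at chr10:80394995-80395249 spans a coding exon and intron at the start of Mbd3-206, and its 7 rows averaged 90.2%. It holds every row found for Mbd3.
Tet1 behind the starts of Tet1-207 and Tet1-210: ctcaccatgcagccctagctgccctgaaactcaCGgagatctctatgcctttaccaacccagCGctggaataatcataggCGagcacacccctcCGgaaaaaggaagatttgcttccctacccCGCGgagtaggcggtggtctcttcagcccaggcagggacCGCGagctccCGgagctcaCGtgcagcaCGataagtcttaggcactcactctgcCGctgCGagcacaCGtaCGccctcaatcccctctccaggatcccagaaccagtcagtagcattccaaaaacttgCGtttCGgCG
Tet1 coding exon: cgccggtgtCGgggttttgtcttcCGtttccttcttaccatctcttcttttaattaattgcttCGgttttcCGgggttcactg
Tet2 intron: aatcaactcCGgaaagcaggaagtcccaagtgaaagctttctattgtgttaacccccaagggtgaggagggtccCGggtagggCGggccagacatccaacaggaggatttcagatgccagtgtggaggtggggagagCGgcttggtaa
Mbd3: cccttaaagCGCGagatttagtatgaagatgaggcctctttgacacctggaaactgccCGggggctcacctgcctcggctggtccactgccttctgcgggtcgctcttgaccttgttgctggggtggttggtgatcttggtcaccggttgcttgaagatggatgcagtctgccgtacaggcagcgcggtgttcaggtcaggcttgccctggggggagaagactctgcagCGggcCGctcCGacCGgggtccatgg

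Across the whole table, each mouse had between 308751 and 608017 CpGs with a value, and 132 to 427 of the 473 member CpGs. The read depth behind a percentage is unknown beyond the authors' minimum of 10 reads, so single values carry no counting interval, and 85.8% of the 6853 member values were exactly 0 or 100. Only 11 member CpGs had a value in all 24 mice, and 111 had at least 5 mice in every group. Aged STD replicate 5 stood apart, with a mean of 23.6% over its CpGs against 38.2% to 44.5% in the other aged STD mice, and leaving it out changed no call on the members. In bulk tissue, a changed mixture of cell types and a changed methylation within cells cannot be told apart. The promoters of the neuron markers averaged 5.64%, 5.62% and 4.47% in young STD mice, aged STD mice and aged ENR mice (4 of 5 genes), those of the oligodendrocyte markers 13.2%, 12.1% and 9.22% (4 of 6), those of the astrocyte markers 23.3%, 21.0% and 18.8% (4 of 6), and those of the microglia markers 56.9%, 56.1% and 45.6% (2 of 6). Their gene bodies averaged 26.6%, 28.5% and 24.6% for neurons (4 of 5 genes), 48.9%, 47.3% and 48.6% for oligodendrocytes (5 of 6), 41.7%, 41.9% and 42.4% for astrocytes (4 of 6) and 74.5%, 73.8% and 72.9% for microglia (5 of 6). Methylation does not measure their expression, and their part in the results was not tested.

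Promoter CpGs, those within 1 kb of any annotated start of the member gene itself, made up 284 of the member rows, and the remaining span, called the gene body, held 186. A further 3 rows lay outside Dnmt3l. The promoters were largely unmethylated. Over all mice, 253 of the 284 promoter CpGs (89.1%) had a mean under 10%, 20 lay between 10% and 90%, and 11 (3.87%) lay over 90%. Body CpGs of the members were spread over all levels, with 45 under 10%, 77 in between and 64 over 90%. The 45 include 15 CpGs of Dnmt3l that lie within 1 kb of the start of another gene. With the starts of all genes counted, as was done for the whole table, 88.7% of 302 member CpGs near a start were under 10%, against 81.7% of 334448 in the table, and away from starts 17.5% of 171 member CpGs were, against 16.0% of 359931. These shares are descriptions, since CpGs of 1 gene sit on the same fragments.

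**Figure D1:**
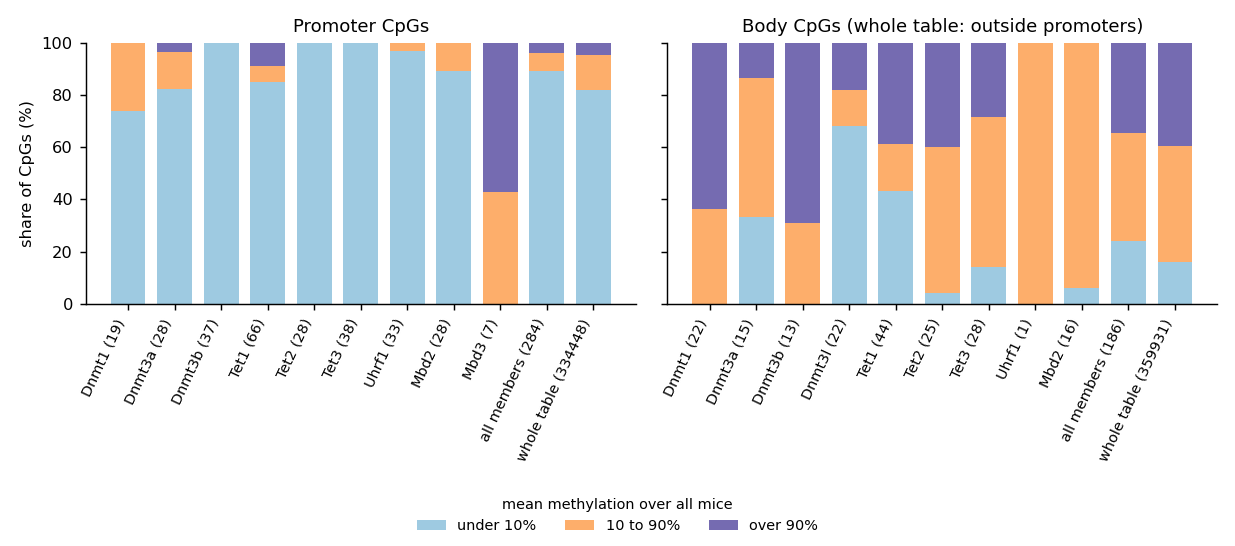
Share of CpGs (%, y axis) with a mean over all mice under 10%, from 10% to 90% and over 90%, for the promoter CpGs (left) and body CpGs (right) of each gene, of all 10 genes and of the whole table (there, CpGs within 1 kb of any gene's start on the left and all others on the right), with the number of CpGs in parentheses. Dnmt3b, Tet2 and Tet3 have all their promoter CpGs under 10%, Mbd3 has none, and Mbd2 has 15 of its 16 body CpGs in the middle class.

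The level followed CpG density. Member CpGs under 10% had a median of 17 CpGs within 100 bp, those between 10% and 90% had 6, and those over 90% had 5. Spearman's rho between the number of CpGs within 100 bp and the mean level was -0.68 across the 473 member CpGs and -0.67 across all CpGs with sequence, where neighbouring CpGs share fragments and mice. Within the classes it was weaker, at -0.36 across the 284 promoter CpGs and -0.39 across the 186 body CpGs. Both strands of the same CG were covered at 41 sites. In these, 80.9% of 408 values from a single mouse differed by at most 10 points between the strands, with a median difference of 1.92 points over the sites. Unmethylated sites carried this likeness. At the 27 sites under 10% on average over the strands, 94.5% of 271 values were this close, against 54.01% of 137 values at the other 14 sites, whose mean differences ran from 1.72 to 35.1 points (median 20.9).

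Among the writers, Dnmt1 (chr9:20907209-20959888, minus strand), the maintenance methyltransferase, held both an unmethylated and a methylated stretch near its 5′ end. Its 15 CpGs near the cluster of starts 6909 bp into the gene averaged 2.39%, whereas the 12 CpGs at chr9:20958754-20958896, upstream of that cluster, lay near full methylation. At these 12 CpGs the level was 89.6% ± 6.90 (SD, n = 8) in young STD mice, 96.6% ± 3.08 (n = 7) in aged STD mice and 89.8% ± 9.31 (n = 7) in aged ENR mice. Young STD mice ranged from 79.3% to 101% with a median of 86.9%, aged STD mice from 91.4% to 99.1% with a median of 97.1%, and aged ENR mice from 74.9% to 100% with a median of 94.3%. Levels of a region were centred on each CpG's mean so that mice with different CpGs could be compared, and can therefore pass slightly below 0 or above 100. The aged STD mice filled the narrow upper end of a range that the other groups shared. The aging difference (aged STD minus young STD) was 6.94 ± 3.51 points (SE), with an adjusted p of 0.923 in limma and an exact two-sided permutation p of 0.0311 before any adjustment. The ENR difference (aged ENR minus aged STD) was -6.73 ± 3.63 points (exact permutation p = 0.105, limma adjusted p = 0.972), and both differences use the same aged STD mice. Unadjusted limma p was 0.0622 for aging and 0.0783 for ENR, and neither difference passed limma's test after adjustment. Over all 22 body CpGs of Dnmt1, the aging difference was -1.38 ± 2.92 points and the ENR difference -0.995 ± 2.92 points (exact permutation p = 0.637 and 0.694). Over its 19 promoter CpGs they were 1.18 ± 4.07 and 2.35 ± 4.07 points (exact permutation p = 0.797 and 0.624).

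Dnmt3a (chr12:3806007-3914443, plus strand), the main de novo writer of mature neurons, had 22 CpGs around its first starts that averaged 0.981%. At the other end of the gene, the 4 CpGs within 1 kb of the start of Dnmt3a-210, a transcript that begins late in the gene, averaged 78.04% and were measured in all 24 mice. Their level ranged between 62.9% and 81.7% among the young STD (median 74.5%), between 76.2% and 91.0% among the aged STD (median 80.9%) and between 57.2% and 89.4% among the aged ENR animals (median 85.3%). The groups overlapped, and aged ENR mice varied most, with an SD of 13.8 points against 6.09 and 5.23 in young STD mice and aged STD mice. The aging difference was 7.01 ± 4.52 points. Its exact two-sided permutation p was 0.0233 before adjustment, while limma gave 0.136 before and 0.923 after adjustment. The ENR difference was -4.11 ± 4.52 points (exact permutation p = 0.440, limma adjusted p = 0.972). The 3 CpGs of an untranslated exon at chr12:3913062-3913133 that were also covered in all mice ran from 0% to 100% among the aged STD mice at 2 of the 3 positions. The stretch of 4 CpGs that holds them was at 85.7% ± 18.1 in young STD mice, 70.3% ± 25.6 in aged STD mice and 76.7% ± 22.5 in aged ENR mice (n = 8 each). Its aging difference was -15.4 ± 10.9 points (limma adjusted p = 0.923, exact permutation p = 0.189) and its ENR difference 6.49 ± 10.9 points (0.980 and 0.590). Over all 15 body CpGs of Dnmt3a, the aging difference was -6.63 ± 5.61 points and the ENR difference 2.42 ± 5.61 points (exact permutation p = 0.342 and 0.707). Over its 28 promoter CpGs they were 1.32 ± 2.03 and -1.19 ± 2.03 points (exact permutation p = 0.551 and 0.649).

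Dnmt3b (chr2:153649450-153687730, plus strand), the second de novo enzyme, had the lowest promoter level of the 9 promoters with at least 4 CpGs in aged STD mice. Its 37 promoter CpGs, which also lie within 1 kb of the start of the antisense-named neighbour Dnmt3bos, all had means of 4.84% or less. The promoter level was 0.951% ± 1.53 (n = 7) in young STD mice, 0.089% ± 0.806 (n = 7) in aged STD mice and 0.0892% ± 0.980 (n = 8) in aged ENR mice. Its 13 body CpGs were methylated, at 90.8% ± 6.09, 82.7% ± 16.8 and 86.5% ± 12.3 (n = 7 each). The aging difference in the body, -8.09 ± 6.44 points, was the widest of the 8 bodies tested (limma adjusted p = 0.886, exact permutation p = 0.275). Aged STD replicate 8 was at 47.0%, and without it the difference was -2.14 points.

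Dnmt3l (chr10:78041947-78063622, plus strand), a cofactor of the de novo enzymes without activity of its own, had no row within 1 kb of any of its starts, so its promoter was not measured. A group of 16 CpGs in its span (15 of them under 10%), at chr10:78043542-78043682, lies at the start of the neighbouring gene Aire and averaged 0.869%, 0.888% and 1.89% in young STD mice, aged STD mice and aged ENR mice. Another 6 CpGs at chr10:78057291-78057434, in a coding exon and intron, were at 86.3% ± 21.8 (n = 5), 98.1% ± 2.50 (n = 3) and 90.9% ± 8.74 (n = 6). The body level of 24.4%, 28.5% and 25.8% is a mixture of these stretches.

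Uhrf1 (chr17:56303321-56323486, plus strand), which recognises half-methylated CpGs and recruits Dnmt1, was measured almost only at its promoter, by 33 CpGs, 32 of them under 10%. The promoter level ran from -1.49% to 7.45% in young STD mice (mean 1.78% ± 2.80), from -0.317% to 3.14% in aged STD mice (mean 0.879% ± 1.49) and from -1.49% to 10.4% in aged ENR mice (mean 1.48% ± 3.73, n = 8 each). All 3 groups sat at the unmethylated floor, and the aging and ENR differences of -0.901 ± 1.40 and 0.601 ± 1.40 points were smaller than their standard errors. Without young STD replicate 2, the mouse at 7.45%, the aging difference was -0.0911 points, and without aged ENR replicate 3, the mouse at 10.4%, the ENR difference was -0.677 points.

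**Figure D2:**
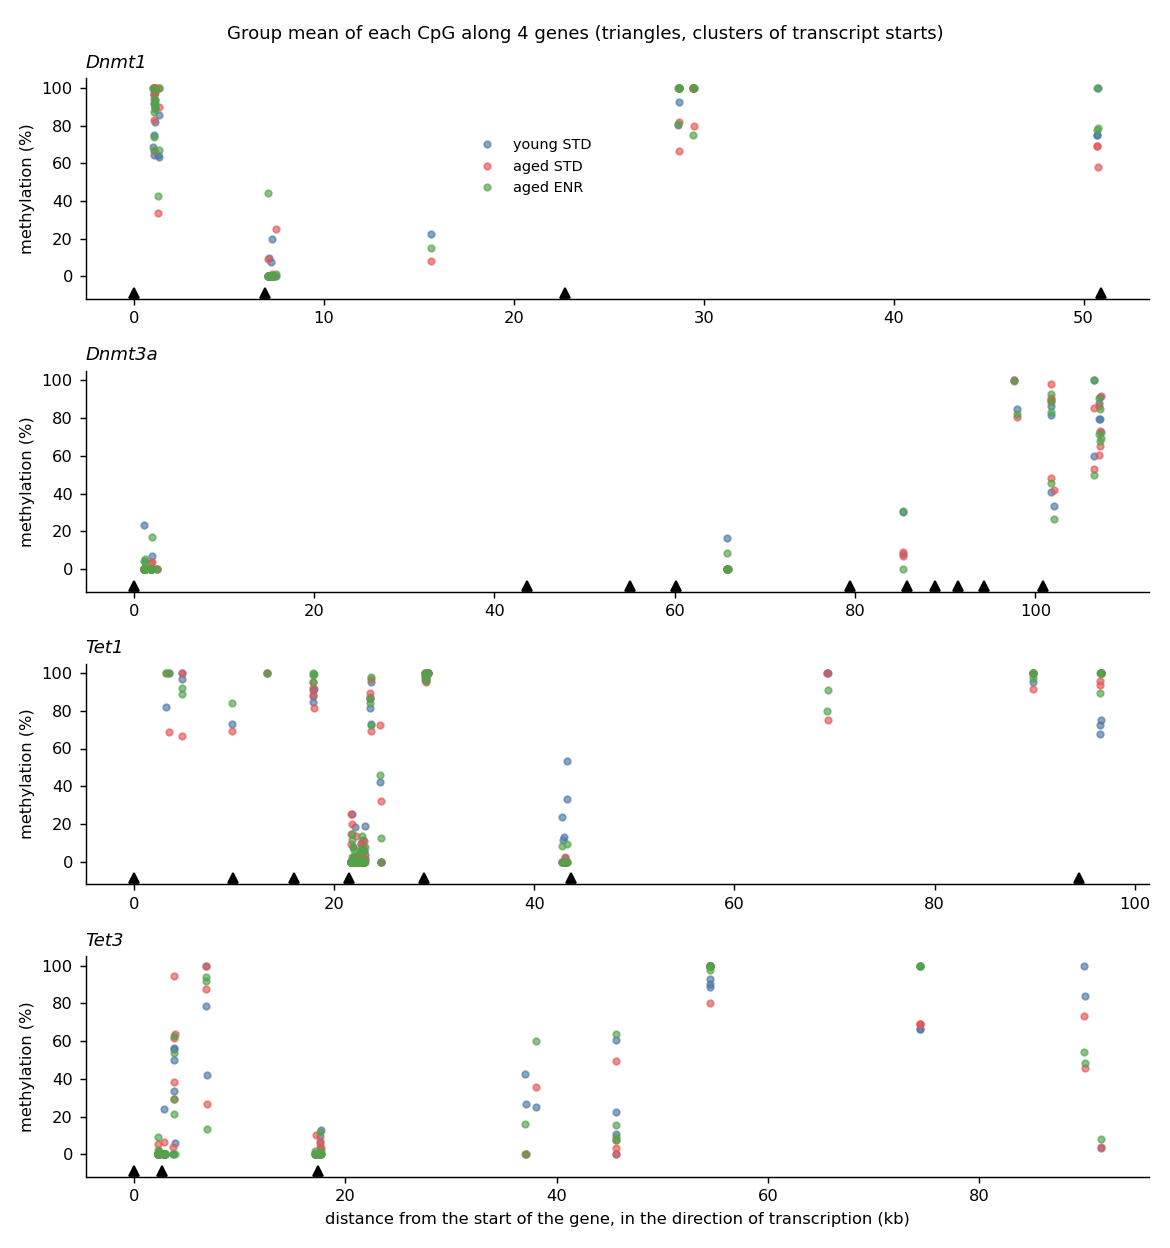
Mean methylation of each CpG (%, y axis) in the 3 groups along Dnmt1, Dnmt3a, Tet1 and Tet3, by distance from the start of the gene in the direction of transcription (kb, x axis), with triangles at the first start of each cluster of transcript starts. CpGs near the starts that hold most rows lie near 0% in all groups. The points of the groups part most at CpGs in the middle of the scale, since a mean near either end leaves little room for a difference.

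Tet1 (chr10:62804570-62908996, minus strand), the eraser with the most rows, was measured by more than 1 CpG at 3 clusters of starts. The 48 CpGs around the starts of Tet1-207 and Tet1-210 averaged 1.48%. By contrast, the 6 CpGs around the start of Tet1-201, a transcript model that begins inside a coding exon, averaged 98.6%. The 11 CpGs around the start of the non-coding model Tet1-202 averaged 4.37%. Their level ranged between -0.318% and 29.3% among the young STD (median 4.53%), between -0.318% and 4.07% among the aged STD (median 0.182%) and between -3.39% and 4.63% among the aged ENR animals (median 2.12%). The groups overlapped, and this cluster was not tested on its own. Over the 66 promoter CpGs together the levels were 12.7% ± 1.90, 11.8% ± 1.84 and 12.1% ± 3.72 (n = 8 each), and over the 44 body CpGs 49.3% ± 4.86, 51.2% ± 2.22 and 51.6% ± 2.84.

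At the far end of Tet1, 5 CpGs of an untranslated exon at chr10:62812376-62812443 had the smallest unadjusted limma p for aging of all member stretches. The 3 young STD mice with enough CpGs were at 79.0%, 80.7% and 94.2%. The 6 aged STD mice ran from 92.6% to 100% with a median of 98.9%, and the 5 aged ENR mice from 94.9% to 100% with a median of 95.2%. The 5 aged ENR mice lay above these 3 young STD mice. At 1 CpG of the stretch, chr10:62812442, 7 mice per group had a value and the groups overlapped. Young STD mice ran there from 20% to 100% and aged ENR mice from 74.6% to 100% (exact permutation p = 0.168). Of the young values, 1 fell within the aged STD range. The aging difference was 12.6 ± 3.15 points, with an unadjusted limma p of 0.00174, an adjusted p of 0.733 and an exact permutation p of 0.0357. Aged ENR mice lay 12.4 ± 3.25 points above young STD mice (unadjusted limma p = 0.00246, adjusted p = 0.942, exact permutation p = 0.0179). That exact p is the smallest that 56 relabelings allow. The difference between both aged groups was -0.217 ± 2.70 points.

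Tet2 (chr3:133463679-133545139, minus strand), an oxidase also known as a tumour suppressor of blood cells, had 28 promoter CpGs, each with a mean of 7.24% or less. The promoter level was 0.643% ± 1.04 (n = 8), 0.948% ± 1.85 (n = 8) and 0.612% ± 1.08 (n = 7) in young STD mice, aged STD mice and aged ENR mice. Its body was intermediate, at 71.2% ± 7.73, 69.1% ± 3.80 and 71.2% ± 7.14 (n = 8 each). Within it, the intronic stretch at chr3:133533721-133533848, whose sequence was given above, varied widely among the young STD and aged STD mice, with SDs of 27.1 and 27.8 points against 9.43 in the aged ENR mice. The 3 young STD mice were at 91.7%, 91.7% and 44.9%, the 3 aged STD mice at 60.3%, 25.6% and 5.24%, and the 4 aged ENR mice at 42.4%, 60.7%, 52.1% and 40.1%. The aging difference was -45.7 ± 16.6 points, with an exact permutation p of 0.2 (unadjusted limma p = 0.0251, adjusted p = 0.923). The groups overlapped, and the 20 relabelings of 3 against 3 mice could not reach 0.05. The ENR difference was 18.4 ± 15.5 points (exact permutation p = 0.286).

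Tet3 (chr6:83362373-83459084, minus strand), the most abundant Tet enzyme of many neurons, had 38 promoter CpGs in 2 clusters that averaged 0.675% (22 CpGs, Tet3-203) and 1.39% (16 CpGs, Tet3-201, Tet3-202 and Tet3-205). Its promoter level was 1.27% ± 1.16, 0.889% ± 1.61 and 0.789% ± 0.780 (n = 8 each). Its body was spread widely between mice, from 41.5% to 67.6% in young STD mice, from 20.2% to 70.6% in aged STD mice and from 41.2% to 65.1% in aged ENR mice, with means of 57.9%, 52.2% and 56.0%. The aging difference of -5.73 ± 5.79 points did not exceed its error. The mouse at 20.2% was aged STD replicate 5, whose whole library stood apart, and without it the difference was -1.16 points. Intermediate CpGs made up 16 of its 28 body CpGs.

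Mbd2 (chr18:70568189-70626131, plus strand), which binds methylated CpGs, had 27 CpGs around its main starts that averaged 2.29%. The promoter level was 3.78% ± 5.57, 1.85% ± 2.37 and 3.97% ± 3.77 (n = 8 each). None of its 16 body CpGs had a mean over 90%, and 15 lay between 10% and 90%. Of the 16, 10 CpGs at chr18:70582420-70582544 lie in the last exon of the short transcript Mbd2-202. Their level was 20.02% ± 11.9 (n = 8) in young STD mice, 34.9% ± 14.3 (n = 6) in aged STD mice and 20.4% ± 18.6 (n = 7) in aged ENR mice. Young STD mice ranged from 5.13% to 38.5%, aged STD mice from 16.1% to 48.5% and aged ENR mice from 1.67% to 54.9%, so the groups overlapped. The aging difference was 14.8 ± 7.93 points (unadjusted limma p = 0.0769, exact permutation p = 0.0586) and the ENR difference -14.5 ± 8.17 points (0.0922 and 0.148), each with an adjusted p over 0.92 and both resting on the same aged STD mice.

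Mbd3 (chr10:80392539-80399550, minus strand), a NuRD subunit, had no row at its first starts and 7 near the later starts of Mbd3-202, Mbd3-205 and Mbd3-206. This region was methylated, at 93.5% ± 1.76 (n = 4) in young STD mice, 90.8% ± 12.5 (n = 7) in aged STD mice and 88.0% ± 14.3 (n = 6) in aged ENR mice. The lowest aged STD mouse was at 63.8% and the lowest aged ENR mouse at 66.5%, while the 4 young STD mice lay between 91.3% and 95.6%. The aging difference of -2.69 ± 7.17 points and the ENR difference of -2.82 ± 6.36 points were smaller than their errors (exact permutation p = 0.861 and 0.739).

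**Figure D3:**
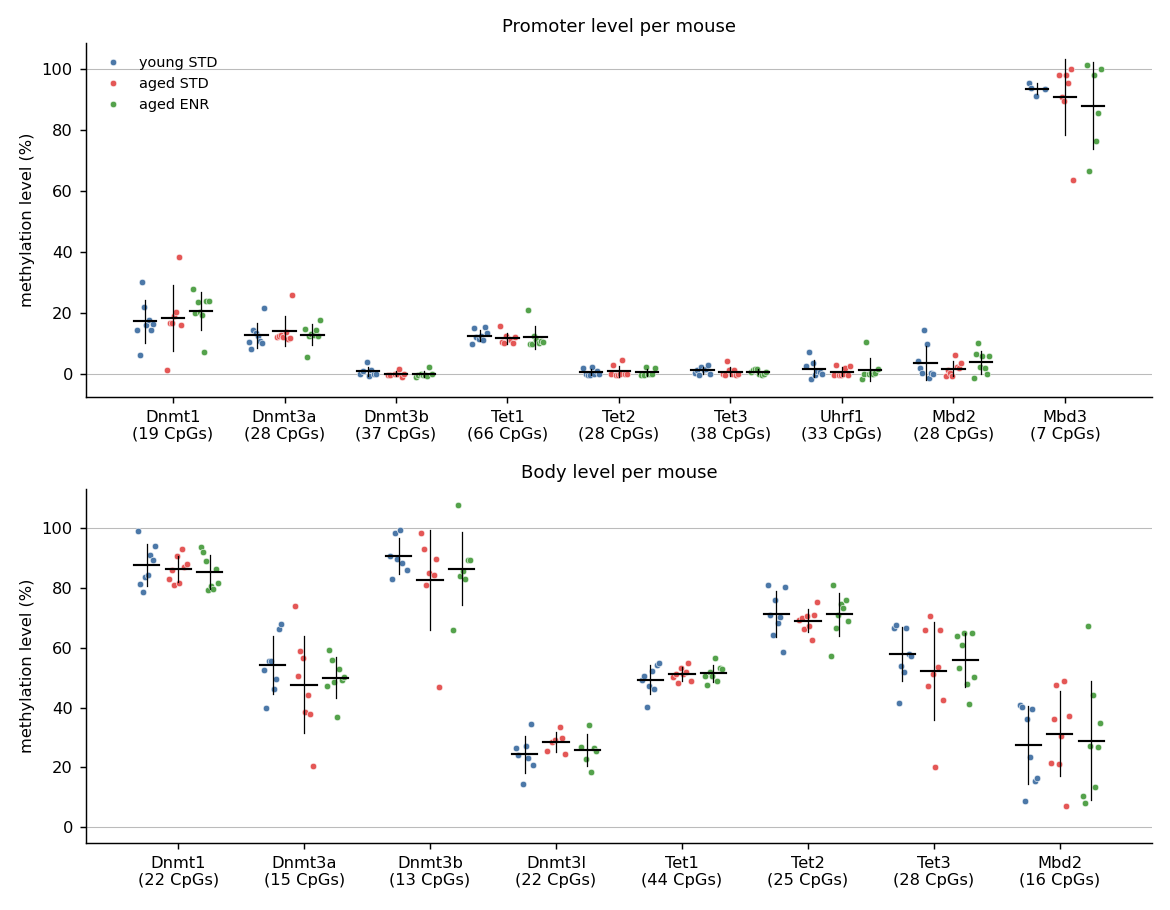
Methylation level of each promoter (top) and gene body (bottom) in each mouse (%, y axis), with the group mean (bar) and SD (line) for young STD mice, aged STD mice and aged ENR mice. In all regions the 3 groups overlap, and the genes differ from each other far more than the groups do, from 0.089% for the Dnmt3b promoter to 90.8% for the Mbd3 promoter in aged STD mice.

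The design asks whether aging changed methylation at these genes and whether ENR in old age changed it again. No member promoter or body passed limma's test in any comparison, with Benjamini-Hochberg adjustment over all regions. For aging, 0 of 9 promoters were called, against 0.0228% of 17562 promoters in the genome, and 0 of 8 bodies, against 0% of 11507. At an unadjusted p under 0.05, limma and the exact permutation test each gave 0 promoters, against 5.12% and 4.44% of all promoters, and 0 bodies, against 5.74% and 5.08%. For ENR the counts were again 0 of 9 and 0 of 8 by limma's adjusted p, with 0.0114% and 0% called over all regions. No member had an unadjusted p under 0.05 by either test, against 4.52% (limma) and 4.75% (exact test) of all promoters and 4.68% and 4.53% of all bodies. Between aged ENR and young STD mice they were also 0 of 9 and 0 of 8, with 0.0114% and 0% called over all regions, and the unadjusted counts were 0 by both tests, against 4.56% and 4.82% of all promoters and 6.12% and 6.54% of all bodies. The member promoters differed by -2.69 to 1.32 points with aging (median -0.862, median of all promoters 0) and by -2.82 to 2.35 points with ENR (median 0.000235, median of all promoters -0.15).

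Stretches of at least 4 CpGs with gaps of up to 100 bp gave 37 member regions. None was called by limma's adjusted p, against 0% of 53498 stretches for aging, 0.00374% for ENR and 0% for aged ENR against young STD. At an unadjusted p under 0.05, limma gave 3 for aging (4.74% of all stretches), 0 for ENR (4.03%) and 1 for aged ENR against young STD (4.49%). These were 8.11%, 0% and 2.70% of the 37. The exact permutation test gave 3 (8.11%, against 3.47% of all stretches), 1 (2.70%, against 3.49%) and 2 (5.41%, against 3.88%), and nothing is read from counts this small. The 3 of limma for aging were the Tet1 and Tet2 stretches above and the 9 CpGs at chr18:70568153-70568227 at the start of Mbd2. There the 3 young STD mice with a level were at 6.06%, 2.56% and 0% (mean 2.87%), and all 5 aged STD mice were at 0% (limma adjusted p = 0.923, exact permutation p = 0.107).

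At single CpGs, limma called 0 of the 473 for aging, against 0.0049% of all CpGs in the table, 0 for ENR, against 0.00446%, and 0 for aged ENR against young STD, against 0.00504%. The unadjusted p was under 0.05 at 9 CpGs for aging (1.90% of the members, 2.23% of all CpGs), at 5 for ENR (1.06%, and 1.9% of all) and at 3 for aged ENR against young STD (0.634%, and 2.18% of all). By size alone, a mean difference over 25 points, 11 member CpGs were higher with aging (2.33%, against 4.15% of all CpGs) and 22 were lower (4.65%, against 5.01%). With ENR, 13 were higher (2.75%, against 3.82%) and 7 lower (1.48%, against 4.51%). In aged ENR against young STD mice, 9 were higher (1.90%, against 3.43%) and 14 lower (2.96%, against 4.99%). The member shares were at or below those of the whole table. However, 63.8% of the members lay within 1 kb of any gene's start, against 48.2% of all CpGs. The shares by position are given below, and away from starts the member share for aging was the higher.

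Of the 33 differences over 25 points for aging, 30 (90.9%) had fewer than 5 mice in at least 1 group, as did 76.5% of all member CpGs. In the whole table the same shares were 81.9% and 67.8%. A mean between 10% and 90% was found at 29 of the 33 (87.9%, against 91.1% in the whole table). A mean near either end leaves little room for a difference of this size. By position, 6 of the 302 member CpGs within 1 kb of any gene's start passed this size for aging (1.99%, against 4.47% of all such CpGs) and 2 for ENR (0.662%, against 3.92%). Of the 171 away from starts, 27 passed for aging (15.8%, against 13.5%) and 18 for ENR (10.5%, against 12.4%). The extremes were a CpG of the Tet2 stretch (chr3:133533785), at 66.7% in 3 young STD mice and 1.90% in 3 aged STD mice, and a CpG of an untranslated Tet3 exon (chr6:83455235), with 63.9% in 3 aged STD mice against 6.11% in 6 young STD mice and 0% in 4 aged ENR mice. For ENR the widest was intronic in Dnmt3b (chr2:153674222), at 9.45% in 3 aged ENR mice against 81.0% in 4 aged STD mice. These 3 were picked for their size and are given as values.

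**Figure D4:**
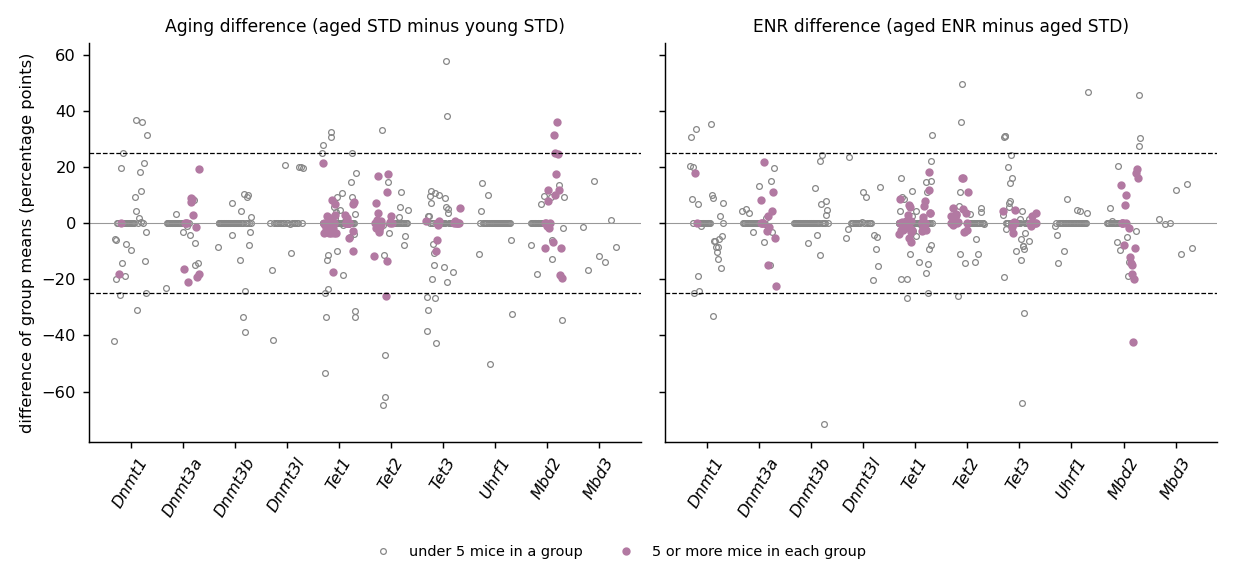
Difference of group means at each member CpG (percentage points, y axis) for aging (left) and ENR (right), by gene, with dashed lines at 25 points. Filled points are CpGs with 5 or more mice in each group, of which 3 lie outside the lines for aging and 1 for ENR, and open points have fewer mice in a group.

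The CpGs with at least 5 mice in every group and the smallest unadjusted p were mainly in Mbd2. The first for both aging and ENR was CpG a of Mbd2, chr18:70582523 on the minus strand, in the untranslated part of the last exon of Mbd2-202. Young STD mice had values from 0% to 58.8% (median 28.2%, n = 8), aged STD mice from 48.0% to 100% (median 55.0%, n = 6) and aged ENR mice from 0% to 72.9% (median 7.27%, n = 7). Every aged STD mouse with a value was above the median of both other groups, and the groups overlapped. The aging difference was 35.9 ± 11.9 points (exact permutation p = 0.005, unadjusted limma p = 0.0075) and the ENR difference -42.4 ± 12.3 points (exact permutation p = 0.0122, unadjusted limma p = 0.00283). Adjusted over all CpGs of the table, limma's p was 1 in both. Both differences come from the same 6 aged STD mice. Aged ENR and young STD mice differed by -6.50 ± 11.4 points.

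Its neighbours were chosen by the same rule for aging. At CpG b (70582544) the means were 1.41%, 13.2% and 4.46% in young STD mice, aged STD mice and aged ENR mice, at CpG c (70582537) 16.7%, 41.3% and 21.2%, and at CpG d (70582500) 17.0%, 48.2% and 36.1%. These 4 CpGs lie within 1 exon and close enough to share reads, so they are not separate observations. All had an adjusted p of 1. For Tet1, CpG a (chr10:62812442) in the 3′ untranslated exon had 72.2% ± 31.2, 93.5% ± 12.7 and 89.5% ± 13.2 (n = 7 each). It belongs to the stretch at the far end of Tet1 described above.

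The other CpGs chosen for ENR lay at either end of the scale. In Dnmt3a, CpG a (chr12:3907703, coding exon) had means of 89.4%, 98.3% and 83.5%, with 1 aged ENR mouse at 32.3%. In Mbd2, CpG e (chr18:70568896, coding exon in the promoter) had 12.1%, 3.12% and 16.9%. In Tet1, CpG b (chr10:62886984) was at 0% in the 5 young STD and 5 aged STD mice with a value and at 5.93% ± 9.5 (n = 6) in aged ENR mice, and CpG c (chr10:62886198) was at 0%, 6.71% and 0%. Their unadjusted limma p for ENR ran from 0.0736 to 0.116, all with an adjusted p of 1.

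**Figure D5:**
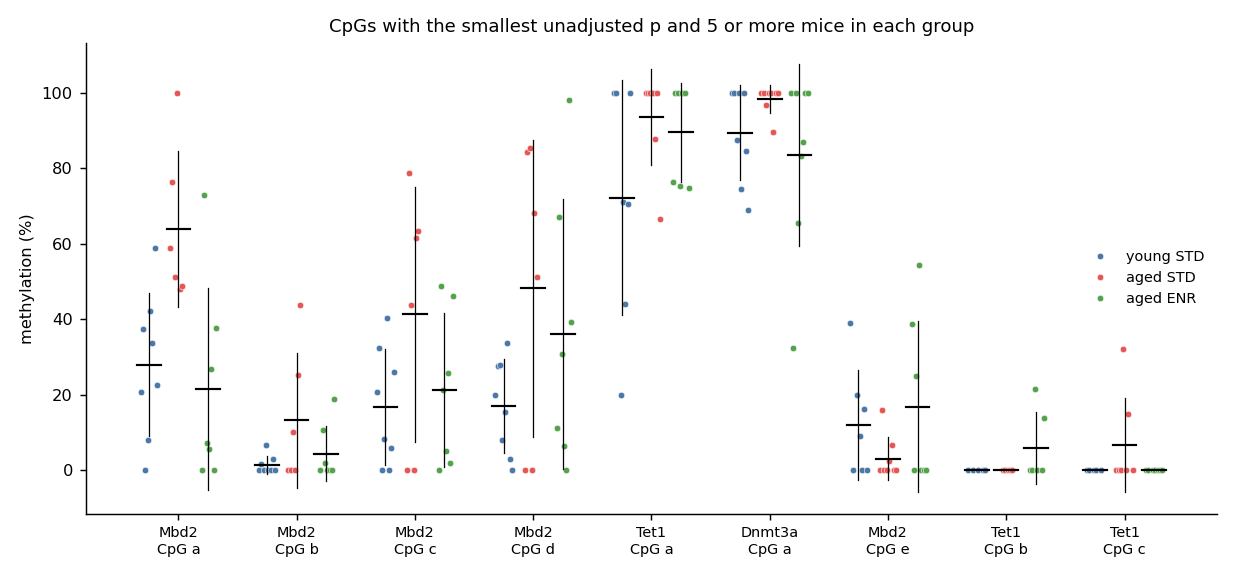
Methylation (%, y axis) of the 9 CpGs named by the smallest unadjusted p, in each mouse of the 3 groups, with the group mean (bar) and SD (line). Letters stand for the positions given in the text, and at Mbd2 CpG a the aged STD mice lie between 48.0% and 100% while the other groups reach down to 0%.

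Of 22 other genes that write, read, remove or guide DNA methylation, 20 had a testable promoter and 10 a testable body. None was called by limma in any comparison, with 1 promoter at an unadjusted p under 0.05 for aging and 1 for ENR, and 1 body in each comparison. These counts of 1 in 20 and 1 in 10 stand against 5.12% and 4.52% of all promoters and 5.74%, 4.68% and 6.12% of all bodies, so the genes are named as values alone. The promoter was Uhrf2, the relative of Uhrf1, both times, at 6.85%, 9.23% and 6.51% in young STD mice, aged STD mice and aged ENR mice (adjusted p = 0.895 for aging and 0.946 for ENR). The bodies were Usp7, a deubiquitinase that binds Dnmt1 and Uhrf1, at 71.0%, 64.9% and 66.2%, for both comparisons with young STD mice, and Nsd1, a histone methyltransferase, at 89.2%, 91.6% and 83.7%, for ENR. Of the 20 promoters, 14 were under 10% in young STD mice.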

How the data were processed

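RRBS of the dentate gyrus of 24 mice, 8 in each group, gave a percent of methylated reads for each CpG, strand and mouse. Per the labels, the authors used Trim Galore, cutadapt 1.8.1, Bismark and the build mm10 (the same assembly as GRCm38), and with methylKit 1.5.2 filtered cytosines on coverage (a minimum of 10 reads, and the top 99.9 percentile as the upper bound) and required 3 mice per group. They deposited the percent values without read numbers, so depth per CpG is unknown and the authors' read-level test could not be run. All per-sample columns matched a sample.

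Rows were assigned to genes with GENCODE M21, with promoters within 1 kb of any transcript start of the same gene. A region's level in a mouse was the mean deviation of its covered CpGs from each CpG's mean over all mice, plus the mean of those CpG means, with at least 4 CpGs per region and 3 per mouse. Group-means models of the percent values were fitted with limma 3.58.1 in R 4.3.3 over all 694379 CpGs, all promoters, all bodies or all stretches, with Benjamini-Hochberg adjustment and a threshold of 0.05. Differences over 25 points, the size criterion of the study, were counted without a test. Exact two-sided permutation tests of group means were run with scipy 1.17.1, numpy 2.4.6 and pandas 2.3.3 (Python 3.11.15), and matplotlib 3.10.9 drew the figures. The scripts were tested on simulated data. Named CpGs were any with an adjusted p under 0.05 and, for aging and for ENR, the 5 with the smallest unadjusted p and at least 5 mice in each group. Other CpGs and the stretches of neighbouring CpGs were chosen after their values were seen. The members and lists were chosen with earlier results of these data known. The mice of different groups share replicate numbers only: deviations of same-numbered mice correlated between -0.0405 and 0.0205 over 24 pairs. Mice are separate animals. The alternatives were a replicate block, an arcsine scale, a minimum of 5 mice per group, plain means, promoters within 0.5 kb, a size of 10 points, and leaving out each mouse in turn for promoters and bodies but only aged STD replicate 5 for single CpGs and stretches.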

Additional observations from a re-analysis of the deposited data

Results flagged for a closer look

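A single mouse stood far from the others of its group in 18 of 92 groups examined, where chance gives about 1 in 20, and the levels of CpG-rich promoters are bounded at 0. For Dnmt1 the promoter level of aged ENR replicate 6 was 7.16%, below the 19.3% to 28.1% of the others. For Dnmt3a it was 21.6% in young STD replicate 8 (others up to 14.6%), 25.9% in aged STD replicate 8 (others up to 13.9%) and 5.68% in aged ENR replicate 2 (others from 12.5%). For Dnmt3b it was 4.10% in young STD replicate 4, 1.77% in aged STD replicate 6 and 2.30% in aged ENR replicate 7, with the others at 1.32% or less. Tet1 had 15.8% in aged STD replicate 1 and 21.0% in aged ENR replicate 1, with the others at 12.6% or less, and aged ENR replicate 1 was the mouse with the fewest member CpGs. Tet3 had 4.48% in aged STD replicate 3 and Uhrf1 10.4% in aged ENR replicate 3. Mbd3 had 63.8% in aged STD replicate 8 (others from 89.5%), and the same mouse had 47.0% in the Dnmt3b body (others from 81.1%).

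Among the named CpGs, Mbd2 CpG b was at 6.67% in young STD replicate 4, Tet1 CpG a at 66.7% in aged STD replicate 8, Dnmt3a CpG a at 89.6% in aged STD replicate 6 and Mbd2 CpG e at 15.9% in aged STD replicate 2. Over its whole library, aged STD replicate 5 averaged 23.6%, against 38.2% to 44.5% in the other aged STD mice. No cause of these values was tested.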

How the results depend on the processing

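No member CpG, promoter, body or stretch passed the adjusted threshold under any alternative run. Of 118 region differences under another setting, 102 kept their direction and 16 did not, and of 544 leaving out a mouse (promoters and bodies, since single CpGs and stretches were refitted without aged STD replicate 5 alone), 511 did and 33 did not (lowest adjusted p 0.859 and 0.843). CpGs differing over 25 points numbered 33, 20 and 23 for aging, ENR and aged ENR against young STD. With a size of 10 points they numbered 106, 93 and 96 (22.4%, 19.7% and 20.3% of the members, against 29.0%, 27.9% and 28.1% of all CpGs), and with at least 5 mice per group, which tests fewer CpGs, 3, 1 and 0 of 111 (2.70%, 0.901% and 0%, against 5.15%, 4.72% and 4.82% of 223328). Member CpGs with an unadjusted limma p under 0.05 numbered 9, 5 and 3. With at least 5 mice per group they numbered 2, 1 and 0 of 111 (5787, 4793 and 5672 of all 223328), and on the arcsine scale 7, 5 and 1 of 473 (16879, 14920 and 16537 of all 694379). The replicate block left 0 calls among the members, gave unadjusted p under 0.05 at 6, 4 and 6 CpGs and 1 stretch for aging in place of 3, and called 577, 505 and 485 CpGs in the whole table in place of 34, 31 and 35. The mice share only a number, so these are given once.

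The small differences of regions changed sign as follows, and the cause was not tested. With plain means of the covered CpGs, aging was -3.61 points at the Dnmt1 promoter, -1.20 at the Dnmt3a promoter, 2.85 in the Tet2 body and -0.722 in the Tet1 body. ENR was then -0.846 at the Dnmt1 promoter, -0.893 at the Tet1 promoter, and -1.33, -1.32 and -3.11 in the Tet3, Tet1 and Dnmt3a bodies. With promoters within 0.5 kb, the Dnmt3a promoter gave -5.08 for aging and 4.03 for ENR, and the Dnmt1 body 0.305 for aging. With at least 5 mice per group, ENR was 0.483 at the Tet3 promoter and -0.793 in the Dnmt3a body, and aging 0.538 in the Tet2 body. With the replicate block, ENR was -0.0102 at the Dnmt3b promoter.

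Leaving out 1 mouse in turn, aging ranged from -2.13 to 4.03 points at the Dnmt1 promoter, from -0.36 to 2.58 at the Dnmt3a promoter, from -0.24 to 0.548 at the Tet2 promoter, from -4.22 to 1.82 at the Mbd3 promoter and from -2.68 to 0.223 in the Dnmt1 body. ENR ranged from -0.502 to 5.66 at the Dnmt1 promoter, from -1.87 to 0.494 at the Dnmt3a promoter, from -0.315 to 0.28 at the Dnmt3b promoter, from -1.02 to 0.825 at the Tet1 promoter, from -0.639 to 0.209 at the Tet2 promoter, from -0.261 to 0.412 at the Tet3 promoter, from -0.677 to 1.03 at the Uhrf1 promoter and from -7.33 to 1.48 at the Mbd3 promoter. In the bodies it ranged from -1.47 to 6.21 for Dnmt3a, from -2.17 to 7.19 for Dnmt3b, from -0.417 to 0.905 for Tet1, from -0.805 to 6.39 for Tet3 and from -7.77 to 0.673 for Mbd2.

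The other 16 of the 34 differences of promoters and bodies kept their sign, and each was moved by over 1.5 times by leaving out some mouse.

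Few mice per CpG, values at 0 or 100 and an unknown depth limit these data.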
